A study of Mus musculus with 4 samples.

Results

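The distal end of each mouse autosome is the end that lies at the highest coordinate, next to the long-arm telomere. Its replication profile was taken as all 100 kb windows, spaced 25 kb, that had a value in all 4 libraries and ended within 3 Mb of the largest window end of that chromosome. The 19 autosomes gave 2268 such windows, which were 2.4% of the 94694 autosomal windows of full length with 4 values and belonged to a table of 109033 windows. Of the 2268 windows, 567 do not overlap. The rule used position alone and no measured value.

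The libraries were made by TrAEL-seq, which ligates an adaptor to free DNA 3′ ends and so shows, along the genome, which strand carries the ends found at forks. Mouse embryonic stem cells of the line 129S6/SvEvTac, grown with serum and LIF on gelatin, were compared as wild type (WT, genotype label wildtype, 2 libraries) and Snf2h knockout (KO, genotype label SNF2KO, 2 libraries), each from duplicate cultures. Snf2h is the ATPase of ISWI chromatin remodelling complexes, which slide and space nucleosomes. The labels state neither how the knockout was made nor whether it is 1 clone, so the p-values describe the spread between these libraries. Each window carries a polarity, the signed strand imbalance in percentage points (points) between -50 and 50, in GRCm38 coordinates. Read counts are not in the table, so the depth behind each value is unknown. Over all autosomal windows the SD of polarity was 14.6 and 12.8 points in WT replicates 1 and 2 and 19.4 and 14.5 points in KO replicates 1 and 2, with the largest amplitude in KO replicate 1.

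As background, replication starts at many origins along a chromosome, and a pair of forks leaves each of them in opposite directions. Between origins, converging forks meet and terminate. The DNA beyond the last origin has no partner fork to meet: it is replicated by a fork that runs outward to the telomere, which at a distal end means toward higher coordinates. The distal ends are therefore places where the direction of the last forks is known from the geometry, provided that no origin fires in the telomere or in sequence that the assembly lacks. The strand counted as positive is given neither by the labels nor by the column names.

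The ends carry annotated genes up to about 100 kb from the assembly end. RefSeq (GRCm38.p6) places the last protein-coding gene of each autosome between 101.0 kb (Wls, chromosome 3) and 295.1 kb (Cr2, chromosome 1) from it, with a median of 144.4 kb. The following RefSeq sequences are the 250 bases before the start of 4 genes, 5′ to 3′ on the gene's strand (plus in each case), with CG dinucleotides in capitals. They are shown because they place the results on the map. Wls, which carries Wnt proteins to the cell surface, and Gm20939 are the last genes of 2 of the 3 ends with the most negative mean polarity over 3 Mb. Mrgprd, a receptor of sensory neurons, lies in one of the windows with the largest difference between genotypes, and Ccr9, a chemokine receptor of gut-homing lymphocytes, lies in the other.
Wls, chr3:159839400-159839649: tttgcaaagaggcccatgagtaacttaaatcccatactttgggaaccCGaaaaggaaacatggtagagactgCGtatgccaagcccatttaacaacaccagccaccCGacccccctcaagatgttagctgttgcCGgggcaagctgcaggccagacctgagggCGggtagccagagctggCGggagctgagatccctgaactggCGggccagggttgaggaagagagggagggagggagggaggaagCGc
Gm20939, chr17:94864651-94864900: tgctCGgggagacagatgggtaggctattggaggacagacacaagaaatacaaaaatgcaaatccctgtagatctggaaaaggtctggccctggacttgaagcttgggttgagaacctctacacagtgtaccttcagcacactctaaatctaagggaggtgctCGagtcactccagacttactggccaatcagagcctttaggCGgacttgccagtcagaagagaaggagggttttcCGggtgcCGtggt
Mrgprd, chr7:145314585-145314834: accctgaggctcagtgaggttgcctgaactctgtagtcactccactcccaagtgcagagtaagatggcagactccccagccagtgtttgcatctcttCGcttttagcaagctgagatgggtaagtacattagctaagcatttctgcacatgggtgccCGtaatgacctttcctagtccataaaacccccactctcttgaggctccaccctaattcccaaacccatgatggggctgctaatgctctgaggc
Ccr9, chr9:123766961-123767210: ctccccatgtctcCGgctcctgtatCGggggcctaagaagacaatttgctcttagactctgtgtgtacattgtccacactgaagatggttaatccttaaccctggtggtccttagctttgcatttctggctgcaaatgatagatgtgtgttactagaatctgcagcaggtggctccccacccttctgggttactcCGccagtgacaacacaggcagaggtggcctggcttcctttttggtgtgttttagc
Wls holds 8 CG dinucleotides in this stretch, Gm20939 5, Ccr9 3 and Mrgprd 2. Over the 1030 promoters (300 bases around a gene start) at the distal ends, the median GC content was 54.7% and the median number of CG was 8. Over the 31396 autosomal promoters these were 53.0% and 7. The telomere repeat unit TTAGGG or its reverse complement CCCTAA occurred in 9.90% of the promoters at the ends and in 10.6% of all autosomal promoters, which is a match of letters and nothing more.

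Nearly all listed windows had a value, which does not show how many reads lie behind it. Of 2356 windows listed within 3 Mb of the ends, 88 lacked a value in at least 1 library. The 76 windows shortened by the chromosome end had no value in any library, and of the other 12, 7 were on chromosome 13. A window that starts within 100 kb of an end is shortened by construction, so none of these has a value. How much of the outermost 100 kb contributed reads to the full-length windows that reach into it was not tested. The last window with a value started between 101.2 and 161.5 kb from the end.

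Polarity was negative next to the distal end and lost that sign within about 1.2 Mb. In windows that ended within 100 kb of the end, the mean over the 19 autosomes was -22.8 and -20.6 points in WT replicates 1 and 2 and -33.6 and -29.9 points in KO replicates 1 and 2. In the next 100 kb it was -18.1 and -16.3 points in the WT pair and -29.0 and -19.99 points in the KO pair. At 400 to 500 kb it had shrunk to -5.94 and -4.64 points in the WT pair and to -5.46 and -1.95 points in the KO pair. All 4 libraries thus followed the same decline, and the spread between them was widest at the very end.

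A shallower trough of negative polarity lay at 800 to 900 kb in all 4 libraries. There the mean was -7.93 and -7.58 points in the WT pair and -15.1 and -10.1 points in the KO pair, and 17 of 19 chromosomes were negative in all 4 libraries. Only chromosome 5 was positive in all 4 there, and chromosome 12 was mixed. Between 1.6 and 1.7 Mb the mean was positive, at 4.87 and 5.29 points in the WT pair and 9.83 and 6.92 points in the KO pair, with 10 chromosomes positive and 6 negative in all 4 libraries. Beyond 1.8 Mb every mean of a 100 kb step lay between -5.04 and 2.51 points. From 2.5 to 3 Mb the mean was weakly negative again, at -2.69 and -2.31 points in the WT pair and -3.62 and -3.12 points in the KO pair. Over that 500 kb stretch 12 of 19 chromosomes were negative in all 4 libraries. The number of chromosomes negative in all 4 libraries was highest in the outermost 300 kb (15 to 18 of 19 per step) and at 800 to 900 kb, and was 12 at 300 to 400 kb and at 900 to 1000 kb.

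**Figure D1:**
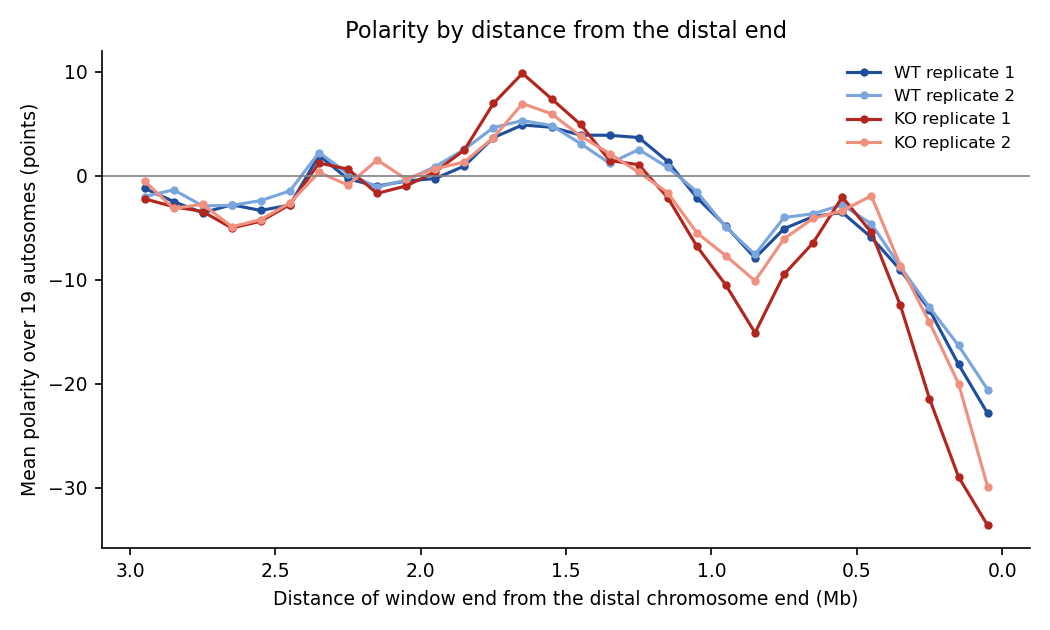
Mean polarity over 19 autosomes (points, y axis) in steps of 100 kb against the distance of the window end from the distal chromosome end (Mb, x axis, the end at the right), with 1 line per library. All 4 lines fall below -20 points in the outermost 100 kb, and the KO lines end lowest.

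The outermost 500 kb were next set beside the rest of the autosomes in blocks of that length counted back from each end. The mean over chromosomes was -13.6 and -12.4 points in the WT pair and -20.3 and -14.9 points in the KO pair. The outermost block was negative in all 4 libraries on 16 of 19 autosomes and positive in all 4 on 1. Over all 4744 autosomal blocks 41.8% were negative and 40.4% positive in all 4 libraries. The median outermost block had a mean over the 4 libraries of -19.6 points, a level at or below which 4.45% of all autosomal blocks lay. It was under -20 points on 9 of 19 chromosomes, against 192 of 4744 blocks (4.05%) in all, and on chromosomes 1, 5 and 12 it was the most negative block of its chromosome.

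The sign reached to the last window with a value. The median over chromosomes of that last window was -29.5 and -26.1 points in the WT pair and -40.0 points in both KO libraries. It was negative in all 4 libraries on 17 of 19 chromosomes, against 37.5% of all autosomal windows that do not overlap. On chromosome 16 it was positive, at 28.7 and 21.5 points in the WT pair and 0.667 and 20.5 points in the KO pair, and on chromosome 4 KO replicate 1 was at 0 exactly. On chromosomes 8 and 19 KO replicate 2 was at -50 points, the bound of the scale. The number of reads behind these last windows is unknown. Without the windows that ended within 200 kb of the end, the mean over 200 to 500 kb was -9.22 and -8.41 points in the WT pair and -12.8 and -7.98 points in the KO pair, with 11 of 19 chromosomes negative in all 4 libraries.

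Chromosomes differed widely among themselves. The most negative outermost block was that of chromosome 12, at -25.6 and -25.5 points in the WT pair and -35.3 and -27.6 points in the KO pair. It holds a single protein-coding gene end, that of Tmem196, a membrane protein. Chromosome 17 followed with -23.8 and -22.6 points in the WT pair and -35.9 and -28.0 points in the KO pair. Chromosome 18 was lower than either in WT replicate 1 alone, at -27.4 points.

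Chromosomes 2, 4 and 7 were near 0 over their outermost 500 kb. On chromosome 2, whose outer genes include the endothelial transcription factor Sox18 and the oligodendrocyte transcription factor Myt1, the block was at 0.951 and 0.906 points in the WT pair and -4.82 and -1.92 points in the KO pair. On chromosome 4, which carries Agrn (agrin, the organiser of the neuromuscular synapse) and Isg15 (an interferon-induced ubiquitin-like protein) there, it was at 0.788 and -0.700 points in the WT pair and -0.247 and -1.74 points in the KO pair. On chromosome 7, with Tpcn2 (a lysosomal ion channel) and Mrgprd, it was at -0.373 and -0.127 points in the WT pair and -4.84 and -1.74 points in the KO pair. In the outermost 250 kb all 3 were negative in every library, from -4.79 points (chromosome 7, WT replicate 2) to -25.6 points (chromosome 2, KO replicate 1).

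Chromosome 9 went the other way. Its outermost 500 kb, with the chemokine receptor gene Ccr2 and Nlrp4g (a member of the NLR family), were at 13.4 and 7.30 points in the WT pair and 16.4 and 11.3 points in the KO pair. All libraries were positive, and their order did not follow the genotype. Its last window was negative, at -19.0 and -28.6 points in the WT pair and -26.1 and -28.1 points in the KO pair. The last protein-coding gene of this chromosome is Ppp2r3d, which encodes a regulatory subunit of protein phosphatase PP2A.

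**Figure D2:**
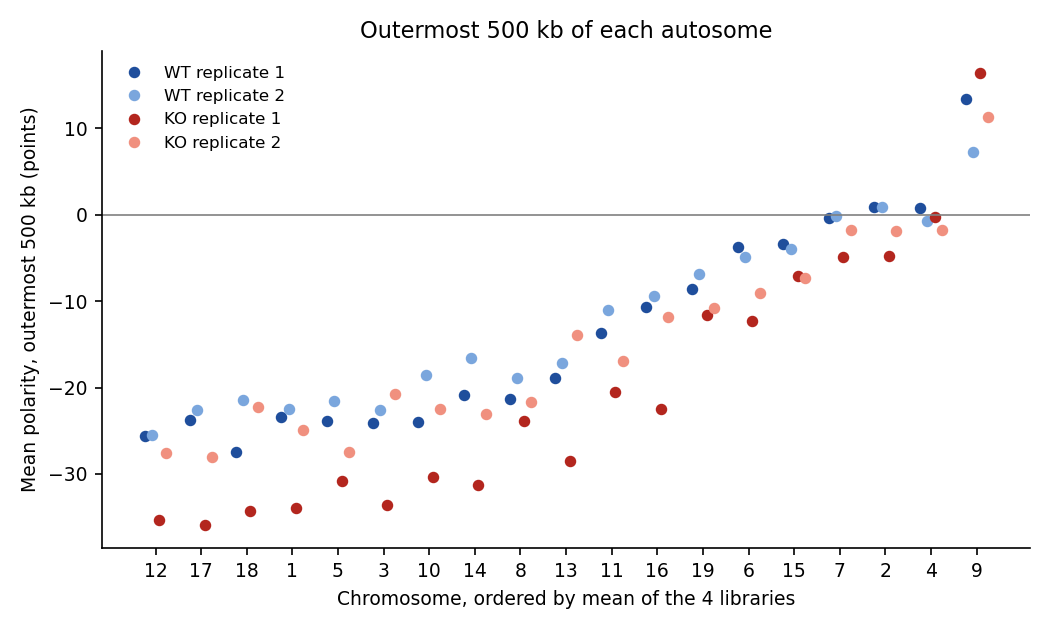
Mean polarity of the outermost 500 kb (points, y axis) of each autosome (x axis, ordered by the mean of the 4 libraries), with 1 point per library. Chromosome 12 is lowest, chromosome 9 is the only one with all 4 points above 0, and KO replicate 1 is the lowest point on most of the negative ends.

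Over the whole 3 Mb the negative sign was diluted but kept. Mean polarity was -2.80 and -2.41 points in the WT pair and -4.65 and -3.50 points in the KO pair, against means within 0.2 points of 0 over all autosomal windows (-0.127 to -0.188). The mean of the ends minus that of the rest of the autosomes averaged -3.27 points and was below 0 in 4 of 4 libraries (exact sign-flip permutation p = 0.13, the smallest that 4 libraries allow; Benjamini-Hochberg adjusted 0.375 over 9 tests). Of the 19 ends, 16 were negative in all 4 libraries, 0 were positive in all 4 and 3 were mixed (chromosomes 9, 10 and 14). Of all 797 blocks of 3 Mb counted in the same way, 42.5% were negative in all 4 libraries.

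The 3 most negative ends were those of chromosomes 17, 18 and 3. Chromosome 17 had -9.02 and -6.27 points in the WT pair and -12.8 and -9.33 points in the KO pair over its 3 Mb. Chromosome 18 had -8.43 and -7.46 points in the WT pair and -13.3 and -8.12 points in the KO pair. Chromosome 3 had -4.08 and -4.44 points in the WT pair and -8.86 and -5.67 points in the KO pair. On chromosomes 17 and 18, and also on 13, the end was the lowest block of 3 Mb of its chromosome. The least negative ends were those of chromosomes 10, 14 and 9. Chromosome 14 had 0.232 and 0.532 points in the WT pair and 0.295 and -1.01 points in the KO pair, and chromosome 9 had 1.19 and 0.874 points in the WT pair and -1.16 and -1.74 points in the KO pair. Chromosome 10 had -0.430 and 0.409 points in the WT pair and 0.794 and 0.847 points in the KO pair, while its outermost 500 kb were at -24.0 and -18.6 points in the WT pair and -30.4 and -22.5 points in the KO pair.

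The length of the last stretch of one sign was measured inward from the end on a running mean of 5 windows. Its median over chromosomes was 496.6 and 446.6 kb in the WT pair and 496.6 and 432.5 kb in the KO pair, so the libraries of a genotype differed more than the genotypes. The difference of -7.05 kb was smaller than the replicate SD of 40.6 kb (exact permutation p = 1). On 17 of 19 chromosomes the stretch was negative in all 4 libraries, and on 12 of these the longest and shortest of the 4 lengths lay within 100 kb of each other. Among these 17 the KO mean was longer on 11, shorter on 5 and equal on 1. Both KO libraries were longer than both WT libraries on 4 and shorter on 1. Chromosome 11 gave 432.5 kb in every library. Chromosome 18 had one of the longest stretches, at 1078 and 1053 kb in the WT pair and 1153 and 1053 kb in the KO pair, and chromosome 4 one of the shortest, at 183.1 and 208.1 kb in the WT pair and 208.1 kb in both KO libraries.

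The opposite end of each chromosome was read in the same way, but it cannot test the sign of the scale, because fork direction there is not known. Mouse chromosomes are telocentric, and the assembly starts beyond the centromere, which it does not resolve, so forks can enter the first mapped sequence from the satellite DNA. In the first 500 kb with values, mean polarity was -10.1 and -7.93 points in the WT pair and -13.5 and -10.6 points in the KO pair, with 15 of 19 chromosomes negative and 3 positive in all 4 libraries. Polarity was thus negative at both ends of the mapped chromosome, and the sign did not turn with the side. Over 3 Mb the mean of the distal ends minus that of the proximal ends was -2.35 and -1.91 points in the WT pair and -3.60 and -3.11 points in the KO pair, below 0 in 4 of 4 libraries (exact sign-flip permutation p = 0.13, Benjamini-Hochberg adjusted 0.375). KO minus WT, this contrast was -1.22 points, and the SD between replicates was 0.332 points (exact permutation p = 0.33, the lowest value 4 libraries in 2 groups can give).

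The steepness of the profile gives a further value on which direction the scale runs. Between neighbouring windows that do not overlap, rises of more than 20 points were more frequent than falls of that size over all autosomes. Their shares were 6.16% and 2.72% of steps in WT replicate 1 and 4.69% and 1.77% in WT replicate 2. In KO replicate 1 they were 10.3% and 6.41%, and in KO replicate 2 they were 6.38% and 3.96%. At the distal ends the shares of rises and falls were 6.36% and 4.24% in WT replicate 1 and 4.24% and 2.83% in WT replicate 2. In KO replicate 1 they were 10.6% and 7.07%, with a gap close to that over the autosomes, and in KO replicate 2 they were 6.18% and 6.01%. The sign that stands for a fork moving toward higher coordinates was not settled by these values.

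Gene content differed between the ends and went with polarity across chromosomes. The ends held 711 protein-coding genes, 12.5 per Mb against 8.60 per Mb over the autosomes. They also held 355 lncRNA genes (6.23 against 5.16 per Mb), 192 pseudogenes (3.37 against 3.95 per Mb) and 50 miRNA genes (0.877 against 0.473 per Mb). Of 55 autosomal keratin genes, which encode the intermediate filaments of epithelia, 27 lay at the distal end of chromosome 15. Of the 70 olfactory receptor genes at the ends, 69 lay on chromosome 10. The ends further held 13 of 623 vomeronasal receptor genes, which encode pheromone receptors, and 10 of 409 genes with Zfp symbols, which encode zinc finger proteins. The 485 predicted genes with Gm symbols stood at 8.51 per Mb, against 8.37 per Mb over the autosomes.

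The number of protein-coding genes per end ran from 3 on chromosome 17 to 127 on chromosome 10, with a median of 23. The ends with the fewest, chromosomes 17 (3 genes) and 18 (6 genes), were those with the lowest mean polarity over 3 Mb, and that with the most, chromosome 10, had the highest. Across the 19 ends Pearson's r between gene number and mean polarity over 3 Mb was 0.568 (Spearman's rho 0.515). In the outermost 500 kb, r was 0.616 and rho 0.671, and the 2 ends with 10 or more gene ends (chromosomes 2 and 4) were both near 0. These are descriptions across chromosomes, whose points all come from the same 4 libraries.

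**Figure D3:**
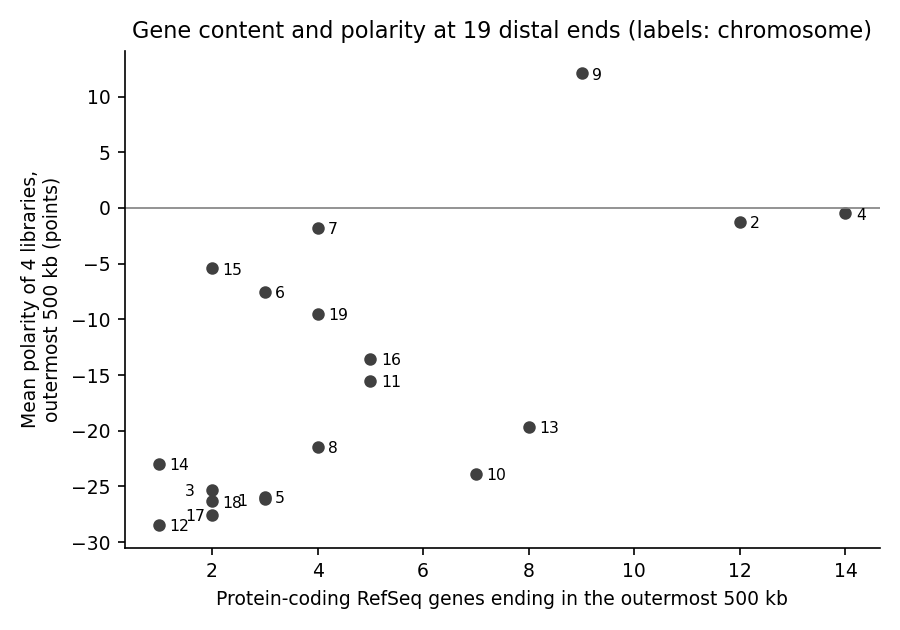
Mean polarity of the 4 libraries in the outermost 500 kb (points, y axis) against the number of protein-coding RefSeq genes that end there (x axis), with 1 labelled point per chromosome. Of the 9 ends with 1 to 3 genes, 7 lie below -20 points and chromosomes 6 and 15 lie at -7.53 and -5.43; chromosomes 8 and 10, with 4 and 7 genes, are also below -20 points, and chromosomes 2 and 4, with 12 and 14 genes, lie near 0.

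The comparison of genotypes asked whether loss of Snf2h changed the profile at the ends. In the outermost 500 kb, polarity was farther below 0 in KO, at -17.6 ± 3.84 points, than in WT, at -13.03 ± 0.839 points (SD, n = 2 each). Both KO libraries lay below both WT libraries, and KO minus WT was -4.54 points, where the pooled SD between replicates was 2.78 points (exact permutation p = 0.33, Benjamini-Hochberg adjusted 0.375). Its size rested on KO replicate 1: it was -1.83 points without KO replicate 1 and -7.26 points without KO replicate 2. It also rested on the windows nearest to the end, since it was -1.58 points without those within 200 kb, where KO replicate 2 lay above both WT libraries (exact permutation p = 1). Without the outer 0.5% of values it was -3.23 points, and the genotypes were no longer separated (exact permutation p = 0.667). In the outermost 250 kb, a zone chosen after the profile was seen, the means were -18.8 and -17.1 points in the WT pair and -29.6 and -22.8 points in the KO pair.

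Amplitude differed between the libraries, with KO replicate 1 above both WT libraries and KO replicate 2 between them, so the same values were also taken in units of each library's own SD over the autosomes. The outermost 500 kb then stood at -0.922 and -0.957 SD in WT and -1.03 and -1.01 SD in KO. The outermost 250 kb stood at -1.28 and -1.32 SD in WT and -1.51 and -1.56 SD in KO. Both KO libraries lay below both WT libraries in either zone. The differences, -0.0830 and -0.235 SD, were larger than the spread between replicates, 0.0202 and 0.0319 SD (exact permutation p = 0.33 for each). The ratio of KO to WT was 1.24 for the SD over the autosomes, 1.35 for the mean of the outermost 500 kb and 1.46 for that of the outermost 250 kb. Block by block, its median was 1.33 over the 16 outermost blocks negative in all 4 libraries. Among negative blocks whose mean over all libraries was under -10 points it was 1.26 for the 12 outermost ones and 1.24 for all 919. In the first 500 kb of the proximal ends, where both KO libraries also lay below both WT libraries, the ratio of the means was 1.34 (from -9.00 ± 1.52 for the WT pair to -12.03 ± 2.07 points for the KO pair, SD, n = 2 each).

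By chromosome, the KO mean was lower than the WT mean in the outermost 500 kb on 18 of 19 autosomes, the exception being chromosome 9. It was lower in 50.2% of all autosomal blocks and in 77.1% of those negative in all 4 libraries, against 16 of the 16 such outermost blocks. Both KO libraries lay below both WT libraries on 13 of 19 and above both on 0, where 24.7% of all autosomal blocks were separated downward and 23.7% upward. Of the 1983 blocks negative in all 4 libraries 39.0% were separated downward, against 12 of the 16 such outermost blocks. These shares were not matched for depth. The median outermost block lay at -19.6 points, a level at or below which 4.45% of all blocks lay. Among negative blocks under -10 points the median ratio of KO to WT was 1.26 for the 12 outermost and 1.24 for all 919. Over all 114 blocks of the ends, 50 were separated downward and 20 upward. The median difference between KO and WT was -1.13 points over these blocks, -4.30 points over the 19 outermost ones and -0.0311 points over all autosomal blocks.

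**Figure D4:**
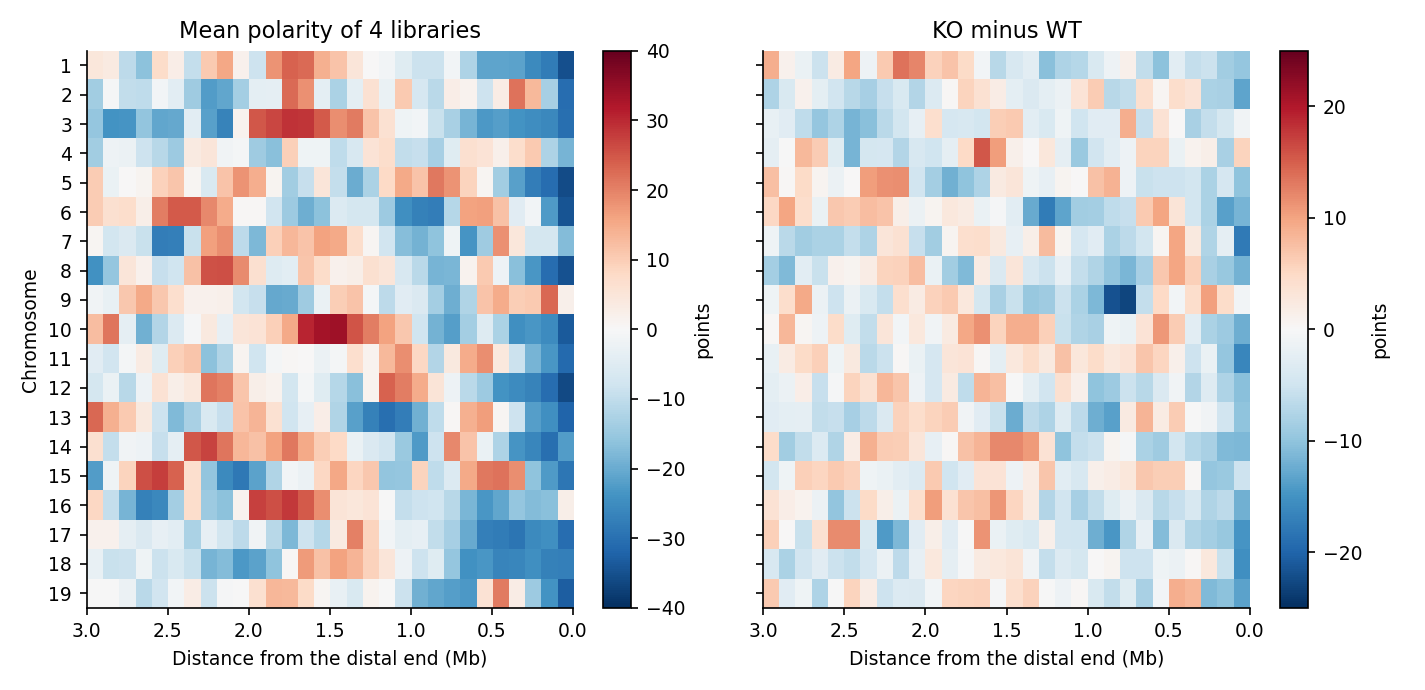
Polarity by chromosome (y axis) and distance from the distal end (Mb, x axis, the end at the right) in steps of 100 kb, as the mean of the 4 libraries (left, colour in points) and as KO minus WT (right, colour in points). The right edge is blue in the left panel on all chromosomes except 9 and 16 and pale to dark blue in the right panel on 18 of 19, chromosome 4 excepted, and the darkest field of the right panel lies at 0.7 to 0.9 Mb on chromosome 9.

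Over 3 Mb, polarity was -4.08 ± 0.814 points in the KO pair and -2.60 ± 0.281 points in the WT pair (SD, n = 2 each). KO minus WT was -1.47 points, where the pooled SD between replicates was 0.609 points, and both KO values were below both WT values (exact permutation p = 0.33, adjusted 0.375), and was -0.898 points without KO replicate 1. Of the 19 ends, 11 were separated downward and 2 upward, where 25.7% and 24.6% of all 3 Mb blocks were. The contrast between the outer 1 Mb and the stretch from 2 to 3 Mb was -7.63 and -7.21 points in the WT pair and -12.2 and -8.76 points in the KO pair. KO minus WT was -3.05 points for this contrast, smaller in size than the gap between the KO replicates, whose SD was 2.42 points (exact permutation p = 0.33, adjusted 0.375), and was -1.33 points without KO replicate 1 and -4.76 points without KO replicate 2.

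Of the ends whose genotypes were separated, those of chromosomes 17, 3, 13, 8 and 7 had the largest differences over 3 Mb. On chromosome 17, which has only 3 protein-coding genes there, the difference was -3.42 points, from -7.64 ± 1.95 in WT to -11.1 ± 2.44 in KO (SD, n = 2 each). On chromosome 3, which ends in Wls, it was -3.001 points, from -4.26 ± 0.256 to -7.26 ± 2.25. On chromosome 13, whose last protein-coding gene Tcstv3 belongs to a family expressed in 2-cell-like embryonic stem cells, it was -2.99 points, from -4.18 ± 0.0614 to -7.17 ± 1.25. On chromosome 8 it was -2.85 points, from -1.49 ± 0.103 to -4.34 ± 0.426, and on chromosome 7 it was -2.49 points, from -2.52 ± 0.201 to -5.01 ± 0.574. These ends were picked for their separation, so the values are a description. Chromosomes 10 and 15 were separated upward, by 0.831 and 0.584 points.

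The SD of polarity over the windows of the ends was 15.2 and 13.2 points in the WT pair and 20.3 and 15.4 points in the KO pair. KO minus WT was 3.64 points for this SD, smaller than the gap between the KO replicates, and KO replicate 2 lay close to WT replicate 1 (exact permutation p = 0.33, adjusted 0.375), and was 1.18 points without KO replicate 1 and 6.11 points without KO replicate 2. Relative to the SD over all autosomal windows it was 1.04 and 1.03 for the WT pair and 1.04 and 1.06 for the KO pair, so the amplitude of the ends was close to that of the autosomes as a whole in each library.

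Single windows and blocks were tested across the whole table. With limma and Benjamini-Hochberg adjustment over 23672 windows that do not overlap, 0.0549% (13 windows) passed an adjusted p of 0.05, and 0 of the 567 windows at the ends did. At an unadjusted p under 0.05, 57 of the 567 were lower in KO and 28 were higher, where 6.11% and 6.10% of all windows were. Of 4744 blocks of 500 kb 0 passed (0%), and so 0 of the 114 at the ends; 18 of these were lower and 3 higher in KO at an unadjusted p under 0.05, against 7.12% and 7.29% of all blocks. With all libraries kept, 11 blocks at the ends passed with each library standardised (9 lower and 2 higher in KO) and 8 with limma's trend and robust options (7 lower and 1 higher), where 7.78% and 4.30% of all blocks did. The number also moved with the libraries used. Without KO replicate 1 it was 5 of 114 (4.39%, against 5.63% of all blocks), and 34 of 567 windows (5.996%, against 5.79% of all windows). Without KO replicate 2 it was 48 of 114 (42.1%, against 38.8%), and 139 of 567 windows (24.5%, against 20.2%). The lone KO library is assumed there to vary like the WT pair.

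The window and the block with the smallest p-values at the ends were on chromosome 9; as 0 passed, they and the others named here were chosen after their values were seen. The window at chr9:123700001-123800000, which ends 795.1 kb from the chromosome end and holds Ccr9, parts of Lztfl1 (a regulator of ciliary traffic) and of Fyco1 (an adaptor of autophagosome transport), had -4.47 and -6.40 points in the WT pair and -37.2 and -25.3 points in the KO pair. The difference was -25.8 points (limma SE 4.87, adjusted p = 0.0511). In 6 of its 6 overlapping neighbours both KO libraries also lay below both WT libraries. These neighbours share part of its sequence, so they add no separate evidence. The window after that of Ccr9, from 123800001, holds Cxcr6 and Xcr1, a pair of further chemokine receptor genes. Its values were -10.4 and -13.8 points in the WT pair and -34.6 and -26.1 points in the KO pair (limma adjusted p = 0.146). Of its 6 overlapping neighbours, 4 were separated the same way. In the window from 123900001 the libraries lay between -4.43 and 6.48 points, and in that from 124000001 between 16.1 and 20.8 points with no separation. Both KO libraries lay below both WT libraries in 10 windows in a row, from the one that starts at 122900001 to the one that starts at 123800001, and not in those distal to them. The run was found around a window picked for its values, and some margins were narrow. In the window from 123000001, WT replicate 1 was at 4.95 points and KO replicate 1 at 4.61 points. The share of all autosomal windows separated downward was not counted. For 500 kb blocks it was 24.7%.

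**Figure D5:**
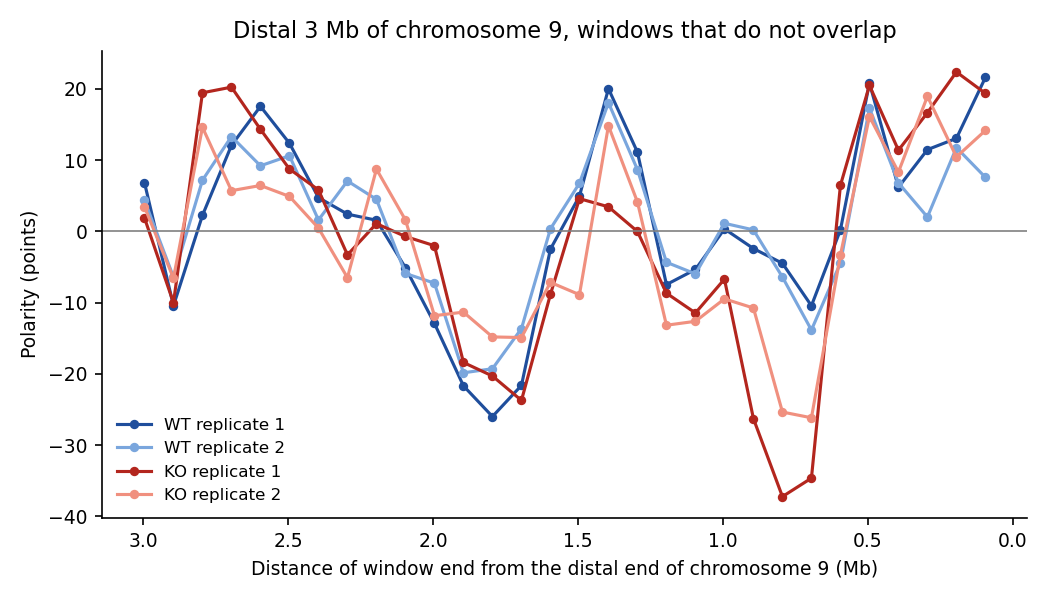
Polarity (points, y axis) in windows that do not overlap over the distal 3 Mb of chromosome 9, against the distance of the window end from the chromosome end (Mb, x axis, the end at the right), with 1 line per library. The KO lines fall to -37.2 and -26.1 points at 0.7 to 0.8 Mb where the WT lines stay above -14 points, and all lines are positive from 0.5 Mb to 0.1 Mb.

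As a block, the windows from 123500001 to 124075000 on chromosome 9 had -1.29 and -2.98 points in the WT pair and -15.8 and -11.3 points in the KO pair. The difference was -11.4 points (limma SE 2.43, adjusted p = 0.276). The block inward of it, from 123000001 to 123575000, with the cell-cycle kinesin Kif15 and the mitochondrial leucyl-tRNA synthetase gene Lars2, had 4.98 and 4.66 points in the WT pair and -2.61 points in both KO libraries (limma adjusted p = 0.277). The signs of the genotypes differed there.

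On chromosome 7 the window from 145300001 to 145400000, with the receptor genes Mrgprf and Mrgprd, ended 41.5 kb from the chromosome end. It had -11.3 and -1.70 points in the WT pair and -34.3 and -24.3 points in the KO pair, and KO minus WT was -22.8 points (limma SE 4.99, adjusted p = 0.0887). On chromosome 6 the block from 148150001 to 148725000, with Tmtc1 (a protein O-mannosyltransferase of the endoplasmic reticulum), Far2 and Ergic2, had -6.05 and -6.50 points in the WT pair and -19.8 and -14.4 points in the KO pair. The difference was -10.9 points (limma SE 2.50, adjusted p = 0.276). On chromosome 17 the window from 93200001, which overlaps Adcyap1 (the neuropeptide PACAP), had -16.4 and -16.2 points in the WT pair and 2.34 and 0 points in the KO pair (limma adjusted p = 0.146). The block from 93900001 to 94475000 there had -11.2 and -8.86 points in the WT pair and -23.0 and -15.8 points in the KO pair (limma adjusted p = 0.284). On chromosome 13 the window from 119400001 had -2.69 and -5.05 points in the WT pair and -20.8 points in both KO libraries (limma adjusted p = 0.159). The overlapping neighbours separated the same way were 3 of 4 on chromosome 7, 4 of 6 on chromosome 17 and 5 of 6 on chromosome 13.

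The libraries resembled one another at the ends about as much as elsewhere. Pearson's r across the 2268 windows, which overlap and are not independent, was 0.945 for the WT pair and 0.930 for the KO pair. Across genotypes, KO replicate 1 reached 0.917 with the first WT replicate and 0.915 with the second, and KO replicate 2 reached 0.885 and 0.886. Over the other 92426 autosomal windows the same values were 0.940, 0.911, 0.917, 0.904, 0.874 and 0.864.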

How the data were processed

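Per the column names and the submitters' processing notes, reads were trimmed with Trim Galore 0.6.5, aligned with Bowtie2 2.4.1 to GRCm38 with an rRNA sequence and deduplicated per library. The deposited values are a score, the strand imbalance per 100 kb window in percentage points from -50 to 50; the program, any read minimum and the depth are not given in the sources used here. For WT replicate 2, the label and the column name give different index sequences.

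Distances run from the largest window end of a chromosome. Means weight the 19 autosomes equally. Values per library were compared by exact two-sided permutation tests (6 label orders; Benjamini-Hochberg over 9 tests). Windows that do not overlap, and 500 kb blocks with at least 10 windows, were fitted with limma 3.58.1 (R 4.3.3) over all autosomes and tested on simulated data. Python 3.11.15 was used. The members, lists and tests were chosen with earlier results of these data known. Named ends are the 3 highest, the 3 lowest and the 5 largest separated differences; named genes are the last protein-coding gene and those in named windows or blocks. Of the blocks so named, 1 that was higher in KO is not reported here. Genes and promoters are from RefSeq (GRCm38.p6).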

Additional observations from a re-analysis of the deposited data

Results flagged for a closer look

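Chromosome X lay outside the autosomal comparisons, and its distal end is listed because both KO libraries lay farther from 0 than both WT controls, which also held for 12 of the 16 negative outermost autosomal blocks. Over its outermost 500 kb only 6 windows had a value in all 4 libraries. They averaged 2.44 and 1.55 points in the WT pair and 8.94 and 7.37 points in the KO pair, with a KO mean of 8.15 points, a positive sign where 18 autosomes were negative in KO (exact permutation p = 0.33, the lowest value 4 libraries in 2 groups can give). Over its last 3 Mb 88 windows averaged -8.24 and -8.50 points in the WT pair and -12.3 and -8.57 points in the KO pair, with a KO mean of -10.4 points (exact permutation p = 0.33). There KO replicate 2 was below WT replicate 2 by a small margin, and KO replicate 1 made up most of the difference of -2.08 points.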

How the results depend on the processing

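Of 44 alternatives for the differences in level, amplitude and stretch length with all libraries kept, 42 kept the direction and 2 reversed it; the replicate block, which cannot move these values, is not counted. Both concern the length of the terminal stretch, -7.05 kb, which was 13.02 kb with a running mean of 9 windows and 31.6 kb as a mean over chromosomes; omitting a library gave -39.1 to 25.0 kb. Omitting a library gave -7.26 to -1.83 points for the outermost 500 kb and -2.05 to -0.898 points over 3 Mb. With the limit at 1 Mb or 5 Mb in place of 3 Mb, KO minus WT was -3.60 or -0.826 points. No permutation test of this design can pass 0.05.

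The calls at the ends, 0 windows and 0 blocks, became 3 and 11 with each library standardised, 7 and 8 with limma's trend and robust options, 19 and 21 with the replicate block, and 24 and 13 with the block and standardising, which was added after seeing the data. At an adjusted p under 0.1 there were 2 windows at the ends (0.353%), against 54 (0.228%) of all windows. Over all features the same 4 settings called 0.372%, 1.28%, 2.66% and 3.62% of windows and 7.78%, 4.30%, 12.1% and 10.7% of blocks, where the ends had 0.529%, 1.23%, 3.35% and 4.23% of windows and 9.65%, 7.02%, 18.4% and 11.4% of blocks. The replicate numbers are only numbers: deviations of same-numbered libraries had r = 0.262 over the ends as deposited and r = 0.0329 in SD units. Omitting a library gave 0 to 139 windows and 0 to 48 blocks at the ends, and up to 4790 of 23672 windows and 1843 of 4744 blocks in all. The cause was not tested.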
